A study of Mus musculus with 2 samples.

Results

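The neuronal activity-induced genes described here are 32 genes, of 55536 annotated in the deposited tables, that neurons are known to switch on after synaptic stimulation. They were chosen by symbol and split by role into 17 early transcription factors, 7 feedback and signalling regulators and 8 effectors. They hold 137 of the 141767 annotated transcripts. They were measured by total RNA sequencing in 2 libraries that form 1 group, from the hippocampus of females 14 days old. The mice were B6CASTF1/J, a first-generation cross of the strains C57BL/6J and CAST/EiJ. Each library lists 3 females and 300 ng of RNA, and the tissue is labelled as a hippocampal layer that is not named. The libraries list different mouse numbers but carry 1 donor identifier, so their spread may be partly technical. No stimulated or silenced group was analysed, so induction itself was not measured: the values are the levels of these genes in tissue as collected.

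In neurons, calcium that enters during synaptic activity activates kinases of the CaMK and MAPK pathways, which act on transcription factors already bound to DNA, among them CREB and serum response factor. The first genes to respond need no new protein synthesis, and many encode transcription factors themselves. These in turn act on further genes. Products of effector genes can change synapses, and those of some feedback genes switch the kinases off again. The classes used here follow role, so they do not give the order in which members respond. Messages of early responding genes are typically short-lived, and AU-rich words in the 3′ untranslated region (UTR) mark many of them for decay. In the hippocampus this programme is best known from learning, seizures and sensory experience.

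CREB binds the palindrome TGACGTCA and, more weakly, the core word CGTCA, which reads TGACG on the other strand and lies within the palindrome. The promoters of 3 early transcription factors and of the member with the highest level are shown because they carry these words in different number and spacing, and were chosen after the matches were seen. The sequences are those of RefSeq on GRCm38.p6, 250 bases before the gene's start to 50 bases after it, with core words in capitals for the transcription factors and the full palindrome in capitals for Plk2. They lie at chr12:85473640-85473939 on the plus strand (Fos), chr15:101266596-101266895 on the plus strand (Nr4a1), chr19:4989922-4990221 on the minus strand (Npas4) and chr13:110394794-110395093 on the plus strand (Plk2).
Fos: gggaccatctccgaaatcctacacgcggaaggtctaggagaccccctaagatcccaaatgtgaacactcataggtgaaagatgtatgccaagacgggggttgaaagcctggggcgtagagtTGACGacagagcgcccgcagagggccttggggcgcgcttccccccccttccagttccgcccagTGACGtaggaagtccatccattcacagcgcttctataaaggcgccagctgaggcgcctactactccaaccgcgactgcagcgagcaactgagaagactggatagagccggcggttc
Nr4a1: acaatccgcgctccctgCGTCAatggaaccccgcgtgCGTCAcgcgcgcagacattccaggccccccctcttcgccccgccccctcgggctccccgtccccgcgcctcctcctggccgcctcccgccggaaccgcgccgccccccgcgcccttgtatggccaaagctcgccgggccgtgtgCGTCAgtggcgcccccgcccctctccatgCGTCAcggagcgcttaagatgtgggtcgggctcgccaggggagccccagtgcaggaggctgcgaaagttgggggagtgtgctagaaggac
Npas4: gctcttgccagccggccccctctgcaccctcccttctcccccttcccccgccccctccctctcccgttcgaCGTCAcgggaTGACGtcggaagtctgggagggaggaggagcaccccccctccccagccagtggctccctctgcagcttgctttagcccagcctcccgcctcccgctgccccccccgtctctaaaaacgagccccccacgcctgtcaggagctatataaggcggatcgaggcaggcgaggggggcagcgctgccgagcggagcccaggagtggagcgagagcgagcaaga
Plk2: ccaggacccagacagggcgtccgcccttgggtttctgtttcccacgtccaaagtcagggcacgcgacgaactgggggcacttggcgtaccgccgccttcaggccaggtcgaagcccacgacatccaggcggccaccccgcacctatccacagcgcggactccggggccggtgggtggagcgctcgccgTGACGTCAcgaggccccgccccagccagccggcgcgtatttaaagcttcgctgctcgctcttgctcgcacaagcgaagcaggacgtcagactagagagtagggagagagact
The Fos window holds core words whose first bases lie at -129 and -66 from the start. In Nr4a1 there are 4, at -233, -213, -69 and -40. In Npas4 they lie at -179 and -169, on opposite strands. In the annotation used for the levels the Npas4 gene begins further upstream, at base 4990316 of chromosome 19, so the printed window lies within it. The palindrome of Plk2 begins at -62, and another CGTCA lies after its start, in lower case.

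Of the 32 members, 25 had a window in the RefSeq table. The members with none there are Egr1, Egr3, Crem, Ier2, Sik1, Arc and Nptx2. A core word on either strand was present in 15 of the 25 (60.0%), against 35.5% of 10049 detected protein-coding genes and 23.0% of all 27025 genes of the table. By role, 10 of 14 early transcription factors, 3 of 5 regulators and 2 of 6 effectors held one. The full palindrome was present in 3 of 25 (12.0%), namely Dusp1, Btg2 and Plk2, against 3.61% of detected protein-coding genes. None of the early transcription factors with a window held it. The serum response element, searched as CC, 6 letters A or T and GG, was found for Egr2 and Dusp5 (8.0%, against 1.58%). TATAAA or its reverse complement was found for 5 of 25 members, against 8.29%. Neither the AP-1 word TGAGTCA nor the EGR word GCGTGGGCG occurred in any of the 25 on either strand, against 4.14% and 1.38%. Egr2 has 5 windows and Pim1 has 2, and a word in any of them counted. These matches describe letters in 300 bases, not binding.

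Sequence features outside the promoter were compared in the mm10 assembly with GENCODE M21. Exons and 3′ UTRs are those of the leading coding transcript of each gene, while span is that of the whole gene over all its transcripts. The members are compact, with a median gene span of 5880.5 bases and a median of 4 exons. Over 12861 detected protein-coding genes these medians were 25987 bases and 9 exons. Jun, Junb, Jund, Ier2 and Ier5 have a single exon in that transcript (15.6%, against 3.02%). The longest member is Crem, which spans 71701 bases. As an example of the AU-rich words, the first 30-base stretch of the 3′ UTR of Fos with the most copies of ATTTA is shown. It covers 30 bases, from base 632 of the UTR of Fos-201 on, and capitals mark 2 overlapping copies of ATTTA.
Fos UTR: aacgtttttattgtgttttcaATTTATTTA
The word ATTTA was present in the 3′ UTR of 27 of 32 members (84.4%), against 69.4% of 11920 detected protein-coding genes with a UTR of at least 100 bases. Its median density was 1.88 per kb in early transcription factors, 0.933 in regulators and 3.44 in effectors, against 1.33 over detected protein-coding genes. Effectors thus had the highest median of the classes. Ptgs2 holds 14 copies (5.726 per kb) and Inhba 21 (4.675 per kb), while Fos holds 4 (4.908 per kb) and Arc and Gadd45b hold none. Egr4, Ier2 and Crem also hold none. For Crem this rests on the UTR of Crem-218, which did not lead in the other estimate of transcript levels given below. The longer decay word TTATTTATT was present in 5 of 8 effectors (62.5%), 2 of 17 early transcription factors (11.8%) and 1 of 7 regulators (14.3%), against 7.73% of detected protein-coding genes. The effectors with it were Inhba, Ptgs2, Pim1, Plk2 and Tiparp, and the others were Fos, Fosl2 and Dusp1.

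**Figure D1:**
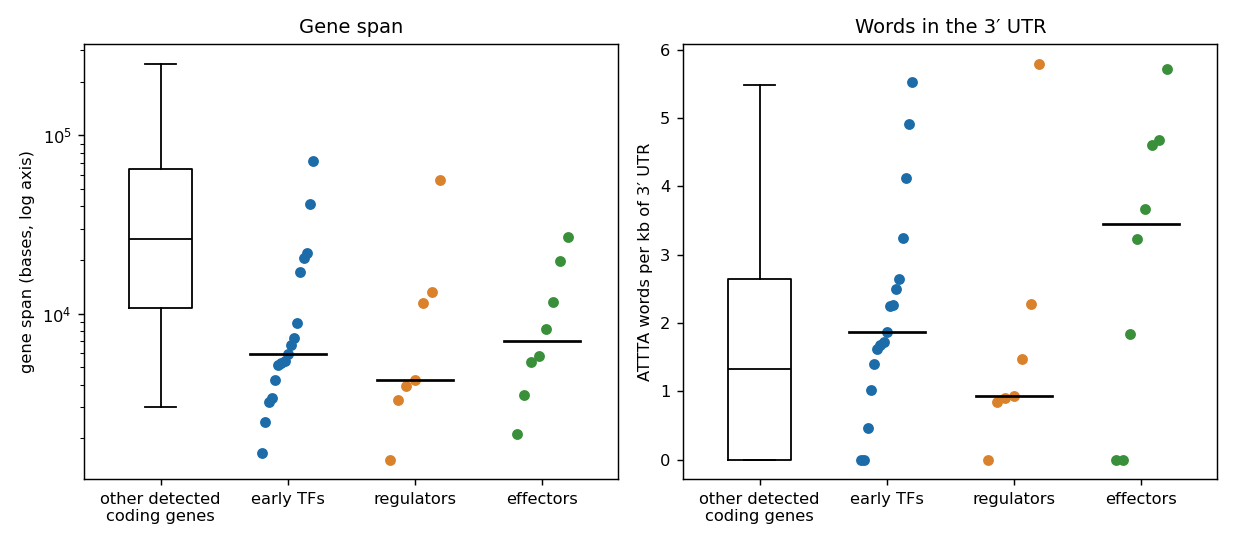
Gene span in bases (left, log axis) and ATTTA words per kb of 3′ UTR (right) for each member by class, one point per gene with the class median as a bar, beside a box of the other detected protein-coding genes (quartiles, whiskers at their 5th and 95th percentiles). Most members lie below the box's median span, and the effectors' median density of 3.44 per kb lies above the median of 1.33 for detected protein-coding genes.

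Levels are given in TPM, a share of transcripts that corrects for length and depth, as the authors' alignment-based gene tables hold them. Replicate 1 had 33465393 expected counts (estimated reads) and replicate 2 had 32879872, and the members hold 37291 (0.1119% of those on annotated genes) and 35613 (0.1088%). A gene is called detected at 1 TPM or more in both libraries. By that threshold 31 of 32 members were detected, against 26.6% of all annotated genes and 58.7% of nuclear protein-coding genes. The exception was Egr2. These levels come from whole tissue, in which fewer cells of a type and less RNA per cell cannot be told apart. Markers of excitatory neurons were high in both libraries (summed TPM of 2872 and 3082 over 5 genes), and all 5 were detected. Choroid plexus markers were not alike: the sum over 6 genes was 1423 TPM in replicate 1 but 8.28 TPM in replicate 2, and all 6 were lower there. Fibroblast and meninges markers summed to 168.2 and 106.5 TPM, with 5 of 5 lower in replicate 2.

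The levels of the members spanned 102.0-fold between the highest and the lowest mean. At the top stood Plk2 and Jund, which together held 30.4% of the members' summed TPM. There were 10 members with a mean of at least 20 TPM, 6 more between 10 and 20 TPM, and 6 under 3 TPM. Those at 20 TPM or more were, in order, Plk2, Jund, Nr4a3, Dusp6, Egr3, Nptx2, Jun, Arc, Egr1 and Junb. Those under 3 TPM were Klf4, Npas4, Fosb, Inhba, Pim1 and Egr2, so early transcription factors and effectors stood at both ends. Of the 31 pairs of neighbours in the order of means, 24 overlapped in their library values. The 7 places where neighbours did not overlap came after Plk2, Jund, Nr4a3, Egr1, Crem, Ier2 and Pim1. From Dusp6 at 31.1 down to Egr1 at 28.8 TPM each member overlapped the next, although Dusp6 and Egr3 lay above Egr1 in both libraries.

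**Figure D2:**
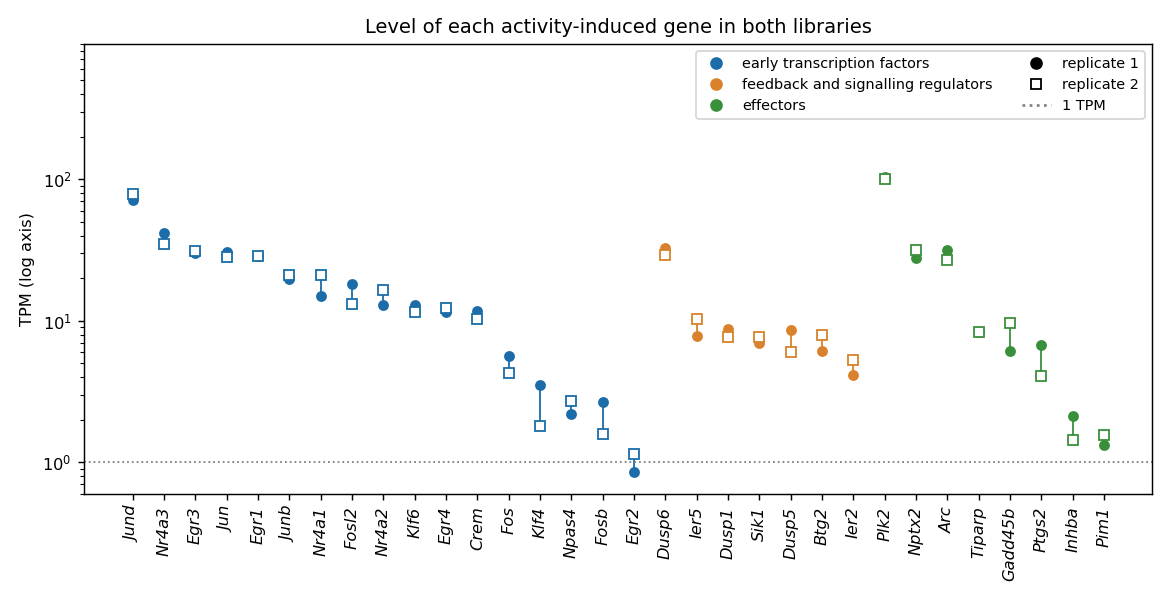
TPM on a log axis for each of the 32 members in replicate 1 (filled circles) and replicate 2 (open squares), coloured by class and ordered by mean within each class, with a dotted line at 1 TPM. Both libraries of every member but Egr2 lie above the line, Plk2 and Jund lie highest, and the ranges of the early transcription factors and the effectors overlap over most of their length.

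The early transcription factors are led by Jund, a gene of the Jun family, whose AP-1 proteins pair with Fos proteins on DNA. Jund, the family member known for steady expression, was at 70.92 TPM in replicate 1 and 78.80 in replicate 2 (74.9 ± 5.57, SD, n = 2). Its partner Jun had 30.66 and 28.38 TPM, and Junb had 19.75 and 21.02 TPM. The family ranked Jund, Jun, Junb in both libraries, with no overlap between them. Jund lies at chr8:70698949-70700616 on the plus strand, and 52.6% of its exon bases are also covered by exons of the antisense gene Gm11175 (14.01 and 9.18 TPM). The sources used here do not say whether counting used strand, so reads of this pair may be shared and the level of Jund is uncertain to that extent. Smaller antisense overlaps exist for Junb with Prdx2 (7.52% of its exon bases, with Prdx2 at 186.98 and 171.68 TPM) and for Jun with Junos (7.28%). Crem, Dusp1, Dusp5, Pim1 and Tiparp are overlapped too, by between 0.332% (Dusp1) and 22.1% (Dusp5) of their exon bases.

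Of the Fos family, whose proteins bind DNA only with a partner, Fos and Fosb stood much lower. Fosl2 was below Junb in both libraries, but only slightly so in replicate 1. Fos (chr12:85473890-85477273 on the plus strand), the classic marker of recently active neurons, had 5.61 and 4.31 TPM from 203 and 171 counts. That placed it at percentile 20.8 of the detected protein-coding genes. Fosb had 2.66 and 1.58 TPM, and Fosl2, which encodes the more stable protein Fra-2, had 18.33 and 13.15 TPM. Fosl2 therefore stood above Fos and Fosb in both libraries. The family summed to 26.6 TPM in replicate 1 and 19.04 in replicate 2, against 121.3 and 128.2 TPM for the Jun family. Fosl1, which is not a member and encodes Fra-1, had 0 and 1 counts (0.0 and 0.02 TPM).

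The EGR proteins are zinc finger factors induced through the MAPK pathway. Egr3 had 29.98 and 31.34 TPM, Egr1, the plasticity gene also called Zif268, had 28.77 and 28.79 TPM, and Egr4 had 11.50 and 12.30 TPM. Egr2, which is also the myelination factor of peripheral nerve, had 0.85 and 1.14 TPM from 54 and 47 counts. Over all transcripts Egr3 exceeded Egr1 in both libraries by less than 3 TPM, while Egr2 was the lowest of all members. Egr4 lay between Egr1 and Egr2 without overlap on either side. Noncoding transcripts held 41.3% and 39.8% of Egr3, while Egr1 has none annotated. The coding transcripts of Egr3, Egr3-204 (13.98 and 16.19 TPM) and Egr3-201 (3.61 and 2.67 TPM), together lay below Egr1 in both libraries.

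The NR4A proteins are orphan nuclear receptors whose activity is set mainly by how much of them is made. Nr4a3 (chr4:48045153-48086447 on the plus strand) led the family with 41.39 and 34.67 TPM. Nr4a1 had 14.99 and 21.19 TPM and Nr4a2, known for its role in dopaminergic neurons, had 12.88 and 16.57 TPM. Nr4a3 stood above the others in both libraries, and the ranges of Nr4a1 and Nr4a2 overlapped.

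Of the remaining transcription factors, Npas4 and Klf4 were low, while Klf6 and Crem stood at percentiles 43.9 and 40.7 of the detected protein-coding genes. Npas4, a factor switched on by calcium entry and nearly restricted to neurons, had 2.20 and 2.72 TPM (169 and 207 counts), which is percentile 9.21 of the detected protein-coding genes. The zinc finger factors Klf4 and Klf6 had 3.55 and 1.82 TPM and 12.96 and 11.57 TPM. Crem, which encodes activators and repressors of the CREB family, had 11.79 and 10.36 TPM. Npas4, Fosb and Fos, all commonly used as marks of recent activity, thus lay between percentiles 7.23 and 20.8, while Egr1, Jun and Arc, used in the same way, lay between percentiles 71.3 and 71.9.

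Among the regulators, Dusp6, a cytoplasmic phosphatase that switches off signalling kinases, had 32.84 and 29.35 TPM. The nuclear phosphatases Dusp1 and Dusp5 had 8.82 and 7.70 TPM and 8.58 and 6.04 TPM. Dusp6 was thus above the others in both libraries, and the ranges of Dusp1 and Dusp5 overlapped. Sik1, a kinase that holds back the CREB coactivators CRTC, had 6.97 and 7.69 TPM. Btg2, an antiproliferative cofactor that promotes the shortening of poly(A) tails, had 6.10 and 7.93 TPM. The immediate early genes Ier5 and Ier2 had 7.78 and 10.26 TPM and 4.12 and 5.29 TPM. Outside Dusp6, all 6 regulators fell between 4.12 and 10.26 TPM in either library.

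Effectors held the highest member and some of the lowest. Plk2 (chr13:110395046-110400844 on the plus strand), a polo-like kinase that weakens overactive synapses, had 103.09 and 99.68 TPM (101 ± 2.41) from 5993 and 5714 counts. Nptx2, a secreted pentraxin that clusters AMPA receptors, had 27.86 and 31.71 TPM. Arc, which drives the removal of AMPA receptors from the synapse, had 31.48 and 26.67 TPM. Plk2 was higher than any other member in both libraries, and Nptx2 and Arc could not be ranked, since their ranges overlap.

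Tiparp, a mono-ADP-ribosyltransferase that represses the aryl hydrocarbon receptor, had 8.38 and 8.27 TPM. The stress and DNA demethylation factor Gadd45b had 6.08 and 9.66 TPM, and Ptgs2, the inducible cyclooxygenase COX-2, had 6.77 and 4.05 TPM. Inhba, which encodes the activin subunit beta A, had 2.13 and 1.44 TPM, and the kinase gene Pim1 had 1.33 and 1.56 TPM. Inhba and Pim1 were the lowest effectors in both libraries, and their ranges overlapped.

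Set side by side, early transcription factors had a median level of 14.73 TPM over their means and effectors 8.098 TPM (SD of the libraries' medians 0.9829, n = 2). In replicate 1 the class medians were 12.96 and 7.575 TPM, a ratio of 1.711. In replicate 2 they were 13.15 and 8.965 TPM, a ratio of 1.467. The median of means for the transcription factors lies above both library medians because different genes stand in the middle, Nr4a2 in the means and Klf6 and Fosl2 in the libraries. The ratio of the medians of means was 1.82. The members' ranges overlapped almost wholly, from 0.995 to 74.86 TPM for transcription factors and from 1.445 to 101.4 TPM for effectors. Regulators had a median of 7.33 TPM (range 4.705 to 31.1). Genes are not replicates, so no test was made between the classes. The direction was the same in both libraries, in the kallisto tables (ratio 1.502) and with the regulators added to the effectors (ratio 1.871).

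Each member was then compared between the libraries, which belong to the same group, to show how steady its level was. The difference is the log2 ratio of replicate 2 to replicate 1 in TMM-scaled expected counts, with a 95% interval that covers counting error only. Each side is 1 library, so the difference has no replicate check. This scale and the TPM set the libraries slightly apart: Egr1 had 28.77 and 28.79 TPM and a log2 ratio of 0.11 [0.02, 0.19]. Members past 1.5-fold numbered 4 of 32 (12.5%), against 5.85% of the 16135 genes with at least 50 counts. The share is 3.44% among protein-coding genes within the members' range of counts.

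Higher in replicate 2 were Gadd45b and Nr4a1, against 1.99% of all genes in that direction. Gadd45b (chr10:80930073-80932204 on the plus strand) had 153 and 244 counts and a log2 ratio of 0.78 [0.49, 1.09], or 1.72-fold. Nr4a1 (chr15:101254269-101274795 on the plus strand) had 773 and 1076 counts and a log2 ratio of 0.59 [0.45, 0.72], or 1.5-fold. Both intervals reach below 1.5-fold. Lower in replicate 2 were Klf4 and Ptgs2, against 3.86% of all genes. Klf4 (chr4:55527143-55532466 on the minus strand) had 207 and 121 counts and a log2 ratio of -0.66 [-1.0, -0.33], or 1.58-fold lower. Ptgs2 (chr1:150100031-150108227 on the plus strand) had 674 and 401 counts and a log2 ratio of -0.64 [-0.82, -0.46], or 1.56-fold lower. These intervals too reach within 1.5-fold. Of these calls, Gadd45b alone passed with kallisto counts, and Nr4a1 did not pass with DESeq2 size factors or spike-in scaling either.

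In the same libraries the marker lists of choroid plexus and of fibroblasts and meninges were lower in replicate 2, with median log2 ratios of -5.24 and -0.52. GABAergic markers summed to 376.2 and 311.2 TPM, microglial markers to 106.4 and 119.6 TPM, and endothelial markers to 64.95 and 65.32 TPM. Their part in the differences of Klf4, Ptgs2, Gadd45b and Nr4a1 was not tested.

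Below that threshold, all 3 Fos genes had negative log2 ratios: Fosl2 -0.41 [-0.50, -0.32], Fosb -0.35 [-0.69, -0.01] and Fos -0.14 [-0.44, 0.16]. The interval of Fos includes no difference. Regulators lay mostly on the other side, with Ier5 at 0.50, Btg2 at 0.48, Ier2 at 0.46 and Sik1 at 0.24, but Dusp5 at -0.40 [-0.61, -0.20]. The median log2 ratio was -0.01 for early transcription factors, 0.24 for regulators and 0.05 for effectors, against 0.01 for all genes. Plk2 (0.04 [-0.01, 0.09]), Jun (-0.01 [-0.10, 0.08]) and Dusp1 (0.01 [-0.22, 0.23]) were near 0. Of all 32 members, 18 had a ratio above 0 and 14 below, where 51.7% of all genes had a ratio above 0. The counting interval lay above 0 for 14 and below 0 for 8, against 36.6% of all genes with an interval that excluded 0, a share that grows with the counts. At a looser threshold of 1.2-fold, 14 members passed, against 24.3% of all genes, and at 2-fold 0 passed, against 1.52%. The members' median absolute log2 ratio was 0.23, and that of all genes was 0.13. It was 0.19 in early transcription factors, 0.40 in regulators and 0.25 in effectors. The common coefficient of biological variation over 17910 genes was 0.1044.

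**Figure D3:**
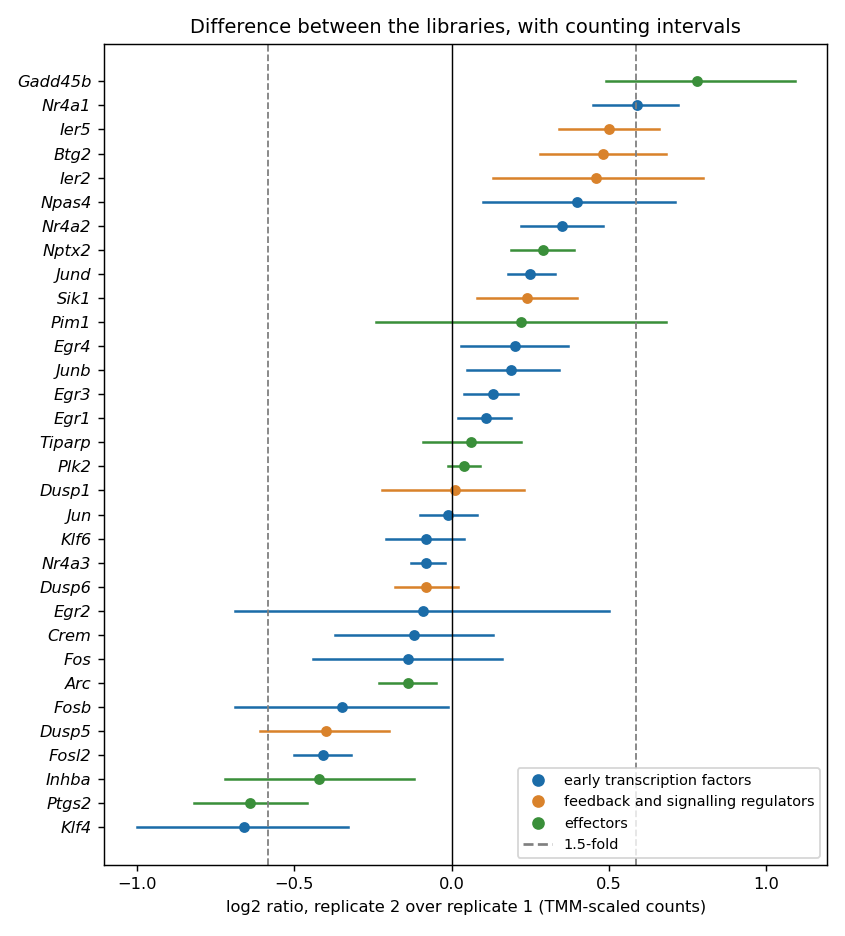
Log2 ratio of replicate 2 over replicate 1 in TMM-scaled counts for each member (points), with 95% counting intervals (bars), coloured by class and sorted by value. Dashed lines mark 1.5-fold, which Gadd45b, Nr4a1, Klf4 and Ptgs2 pass, and short intervals such as those of Plk2 and Nr4a3 belong to the genes with most counts.

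Of the kinases and factors upstream of these genes, all 20 of the list were detected and 0 passed 1.5-fold. Their median level was 38.76 TPM and their median absolute log2 ratio 0.11, against 10.05 TPM and 0.23 for the members. Camk2a, the abundant kinase of the excitatory postsynapse, led with 1344.27 and 1560.53 TPM. The nuclear CREB kinase gene Camk4 had 87.94 and 86.29 TPM. Rps6ka1, which encodes the ribosomal S6 kinase RSK1, was lowest with 6.27 and 6.05 TPM. Of 28 other activity-regulated genes, 25 were detected, with a median of 13.26 TPM. The Ras activator Rasgrp1 (146.95 and 153.44 TPM), the pentraxin gene Nptx1 (132.93 and 123.32 TPM) and Vgf, a neuropeptide precursor (123.84 and 116.5 TPM), all exceeded Plk2 in both libraries. Maff (0.72 and 0.71 TPM), Atf3 (0.39 and 0.23 TPM) and Fosl1 were not detected. Of the 26 with at least 50 counts, Csrnp1 alone passed 1.5-fold, with 3.86 and 5.86 TPM and a log2 ratio of 0.68 [0.40, 0.95].

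Total RNA also shows which transcripts carry each level. Of the members' 137 annotated transcripts, 94 are protein-coding, 18 retain an intron, 20 are processed transcripts without a coding sequence and 5 are marked for nonsense-mediated decay. By the mean of both libraries the leading transcript was protein-coding in 32 of 32 members, and in 21 it held at least 80% of the gene's TPM. Btg2, Dusp5, Egr4, Ier2, Ier5, Jun, Jund and Nptx2 have only 1 transcript. The 18 members with noncoding transcripts gave them a median of 15.4% of their TPM. In the alignment-based tables Egr3-202, a retained-intron transcript, was the only noncoding one at 20% or more in both libraries. It held 10.71 and 9.07 TPM, or 35.74% and 28.95% of Egr3, beside the coding Egr3-204 at 46.63% and 51.67%. In kallisto's estimate Egr3-202 held 23.3% and 25.6%, and 2 more transcripts passed 20% in both libraries. These were the processed transcript Tiparp-203 (37.0% and 28.8%) and the retained-intron transcript Fosl2-203 (23.9% and 23.0%), which had 11.24% and 12.63% and 8.34% and 11.29% in the alignment-based tables.

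Other members gave noncoding transcripts a share that was smaller or differed more between libraries or estimates. In the alignment-based tables Npas4 had 28.7% in both libraries, divided between a retained intron and a nonsense-mediated decay transcript. Dusp6 had 19.5% on average, Fos 32.6% and 20.1%, and Dusp1 27.1% and 11.6%. For Fos the share rests on few reads, since Fos-204 alone went from 1.06 TPM to 0.0 TPM between the libraries. Kallisto's noncoding shares were 56.3% and 34.8% for Fos and 28.2% and 18.3% for Npas4. In its replicate 1 the noncoding Fos-204 (51.4%) exceeded the coding Fos-201 (43.7%).

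**Figure D4:**
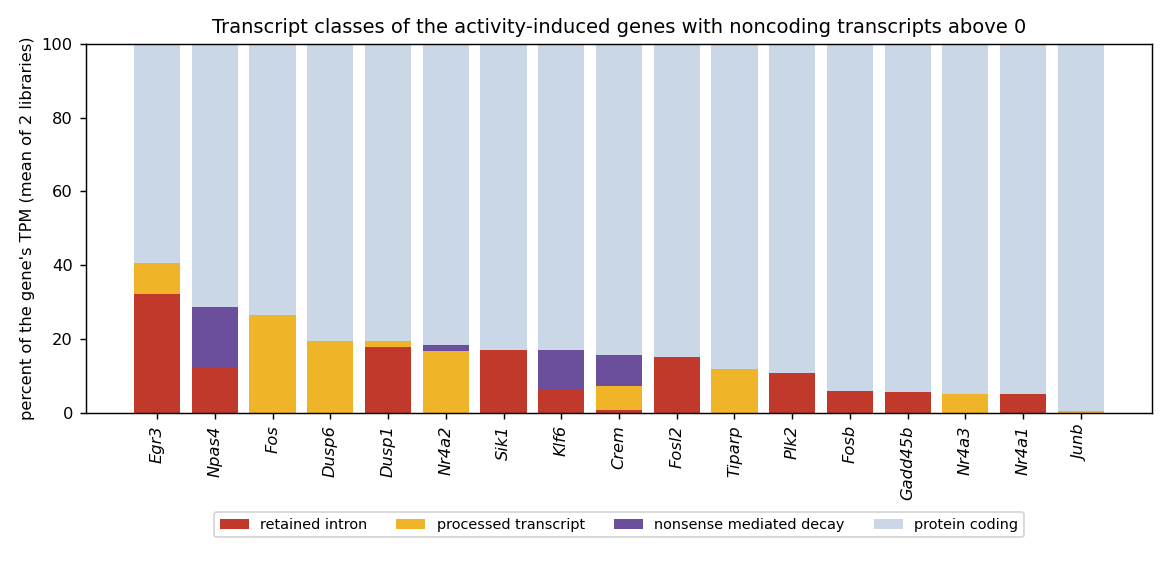
Mean percent of gene TPM over 2 libraries in the alignment-based tables held by retained-intron, processed, nonsense-mediated decay and protein-coding transcripts, for each member whose noncoding transcripts are above 0, sorted by the noncoding share. In these tables Egr3 leads with 40.6%, followed by Npas4 with 28.7% and Fos with 26.4%, and Junb stands last with 0.545%. The order differs in kallisto's estimate, where Fos has the highest share.

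Fosb is known for a shorter protein, delta FosB, that lacks the end of the full protein and accumulates with repeated stimulation. The transcripts differ by a segment of 140 bases at chr7:19305007-19305146 on the minus strand (mm10), which Fosb-201 keeps within an exon and Fosb-206 splices out. It is shown because its removal shifts the reading frame, from a protein of 338 residues to one of 237. Capitals mark the splice signals at its ends.
Fosb segment: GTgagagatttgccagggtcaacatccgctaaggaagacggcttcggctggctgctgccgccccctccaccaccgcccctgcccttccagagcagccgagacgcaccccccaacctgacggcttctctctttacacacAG
The form without the segment had 0.81 and 0.08 TPM, or 30.6% and 5.06% of Fosb, from 18.4 and 1.86 expected counts. Coding transcripts that keep it had 1.72 and 1.38 TPM. Kallisto gave the delta form 45.9% and 21.1%. It was the lesser coding form in both libraries and both estimates, and its share is poorly fixed at these counts. Fosb-206 is annotated with 1090 bases and Fosb-201 with 3782, so its share of counts (10.7% and 1.49%) is lower than its share of TPM.

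Crem also has an internal promoter, which CREB itself switches on and which gives short repressor proteins known as ICER. Its 7 transcripts that start there encode 95 to 125 residues and held 7.32 and 6.32 TPM, or 62.1% and 61.1% of the gene. The 32 that start upstream held 37.9% and 38.9% of TPM. By expected counts the order was the reverse, with 43.7% and 43.9% on the internal starts and 56.3% and 56.1% upstream. Kallisto placed 44.9% and 58.7% of its TPM on the internal starts, so the larger group by TPM differed between the estimates in replicate 1. With 39 transcripts that share most exons and 294 and 250 counts in all, no single Crem transcript could be ranked: the leader was Crem-218 in one estimate and Crem-202 in the other.

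Nr4a1 was the only other member whose leader differed. Nr4a1-201, which starts at base 101266846 of chromosome 15 where the promoter printed above has its start, held 65.19% and 61.51% in the alignment-based tables and 0.0% in kallisto's. Nr4a1-202, which starts upstream at 101254269, held 26.63% and 29.45%, and 93.6% and 93.0% in kallisto's. The level of the whole gene does not depend on this division, but which start is used cannot be read from these tables. Arc-201 and Arc-202 are 3055 and 3054 bases long and held 66.04% and 56.48% against 33.96% and 43.52%.

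Kallisto's TPM, computed over its own entries and effective lengths, was higher for every member. The ratio to the alignment-based TPM had a median of 1.53 over members and 1.56 over detected protein-coding genes. Tiparp (2.255) and Pim1 (2.115) had the highest ratios among the members. At most 2.0% of the 31-base words of any member, in Klf4, were found in transcripts of another gene read on their own strand. Reverse complements were not searched, so antisense overlaps such as that of Jund with Gm11175 are not covered by this share.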

How the data were processed

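Total RNA was sequenced from 2 libraries of 1 group, with ERCC spike-ins (0.4297% and 0.4228% of counts). Per the labels and the file headers, the authors quantified both on mm10 with GENCODE M21. The deposited gene and transcript tables give expected counts, TPM and the percent of gene TPM for each transcript, in RSEM layout. A further deposited table, in kallisto layout, gives TPM and estimated counts. The sources used here do not give the aligner, tool versions or use of strand.

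The members, classes and other lists were chosen with earlier results of these data known. Every member is named. Of the upstream and other activity-regulated lists, the 3 highest, the lowest and any gene past 1.5-fold or not detected are named, except for 1 gene that is not reported here; cell type markers are given as list sums and counts. Symbols came from the kallisto target names, joined by gene identifier. Expected counts were rounded for edgeR 4.0.16 in R 4.3.3 (TMM scaling, common dispersion genes under 10 counts in a library left out). Ratios used a prior count of 0.5 and exact binomial 95% intervals. The ratio step was tested on simulated data with 200 changed genes. No p-value is given, since 1 group of 2 libraries allows none. Promoters came from RefSeq, and UTRs and exons from GENCODE M21. Other scalings (DESeq2 1.42.0 size factors, ERCC), kallisto values, thresholds and class make-up were tried. Python 3.11.15, numpy 2.4.6, pandas 2.3.3 and matplotlib 3.10.9 were used. Intervals cover counting error only.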

Additional observations from a re-analysis of the deposited data

How the results depend on the processing

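The median level of early transcription factors was 33.64 TPM when TPM was computed over nuclear protein-coding genes only, 22.64 with kallisto TPM and 15.23 over detected members only. Leaving out a library gave 12.96 to 13.15. The median of effectors was 18.49 and 15.07 TPM under the first 2 of these, and 7.575 to 8.965 leaving out a library. Their ratio was 1.502 with kallisto and 1.467 to 1.711 leaving out a library, and stayed above 1 in every setting run. Members past 1.5-fold numbered 3 with DESeq2 size factors, ERCC scaling or a prior count of 5, each time without Nr4a1, and 1 with kallisto counts. At 1.2-fold there were 14 (background 24.3%), and at 2-fold 0 (background 1.52%). The cause was not tested. DESeq2 scaling turned the sign of Dusp1, and ERCC scaling those of Dusp1 and Plk2 and of the effectors' median log2 ratio (-0.01). Detected members numbered 27 at 2 TPM and 32 at 0.5 TPM or with kallisto. No ratio exists without a library. No paired analysis was possible because the study has 1 group. Counts of 54 and 47 limit Egr2, and those of Fosb limit its forms.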
